A study of Mus musculus with 13 samples.

Results

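The members described here are the genes for the structural subunits of the 5 complexes of the mitochondrial respiratory chain, complex V being the ATP synthase. They were chosen by mouse gene symbol from the table of estimated counts per gene, as the symbols of the Nduf (a, b, c, s and v), Sdh (a to d), Uqcr, Cox4 to Cox8 and Atp5 families and of the protein-coding genes of the mitochondrial genome. Of 107 symbols that matched, 10 were pseudogenes and were left out, which gave 97 members among the 48795 genes of the table. Complex I had 35 nuclear and 7 mitochondrial members, complex II had 4 nuclear members, complex III had 8 nuclear and 1 mitochondrial, complex IV had 20 nuclear and 3 mitochondrial, and complex V had 16 nuclear and 2 mitochondrial. Atp5s matched by symbol but is not a structural subunit, and it was kept as a nuclear member outside the complexes, for 84 nuclear and 13 mitochondrial members in all.

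The respiratory chain passes electrons from NADH and succinate to oxygen through complexes I to IV, pumps protons at complexes I, III and IV, and lets complex V make ATP from the proton gradient. Its subunits come from both genomes of the cell: the mitochondrial genome codes for a few hydrophobic core proteins, the nuclear genome codes for all others, and complex II is nuclear throughout. In the brain this chain supplies most of the ATP of neurons, and several subunits exist as isoforms that are used in muscle, lung, testis or other tissues.

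RNA was sequenced from the right brain hemisphere, without olfactory bulb and cerebellum, of mice at postnatal day 11 in a study of YAP1-driven ependymoma-like tumours. The nlsYAP5SA group held 5 mice with the genotype NexCre +/- YAP5SAnls +/-, in which Cre removes a floxed stop and a nuclear, hyperactive YAP1 is made. The control group held 5 mice with the genotype NexCre -/- YAP5SAnls +/-, which carry the same transgene but no Cre, and the C57BL/6 group held 3 WT mice with neither allele. All 13 mice were labelled with the C57BL/6J background. Cre is made from the Nex (Neurod6) locus, so the transgene is switched on in cells of that lineage only, while each library held the RNA of the whole hemisphere, tumour tissue and surrounding brain together. Control and nlsYAP5SA mice were littermates from 2 matings, and no source used here says which litter a mouse came from.

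The libraries held 20871566 to 25524349 estimated counts. Yap1 was measured at 19.96 to 22.3 CPM (counts scaled to a common library size, with TMM factors) in the controls, 22.6 to 26.6 CPM in nlsYAP5SA and 19.4 to 21.6 CPM in C57BL/6. Reads of 4 Y-linked genes were present in 5 of 5 control and 2 of 5 nlsYAP5SA libraries (replicates 3 and 4). In C57BL/6 they were present in 2 of 3 (replicates 1 and 3). Xist, an RNA of the X chromosome, had 296, 578 and 480 CPM in nlsYAP5SA replicates 1, 2 and 5 and 270 in C57BL/6 replicate 2. In every other mouse it had at most 0.888 CPM. The labels give no sex, but by these reads sex and genotype are in part confounded. The choroid plexus gene Ttr ranged from 0.822 to 217 CPM in the controls and from 0.783 to 276 CPM in nlsYAP5SA, and a single ribosomal RNA gene (CT010467.1) took 23373 to 99903 CPM over all libraries.

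All 5 complexes were expressed, and their members spanned a wide range of levels. Measured as CPM per kilobase of transcript in the controls, the median nuclear member of complex I stood at 64.7, of complex II at 76.2, of complex III at 148, of complex IV at 157 and of complex V at 164. Among the nuclear members with high levels were Atp5b, the catalytic beta subunit of ATP synthase, with 505 CPM per kilobase, and Cox4i1, the common isoform of cytochrome c oxidase subunit 4, with 414. Cox8a and Cox6a1, the common isoforms of subunits 8 and 6a, had 332 and 327 CPM per kilobase. The lowest tested member was Cox4i2, the lung isoform of subunit 4, with 1.78 CPM per kilobase. The mitochondrial members had a median of 2548 CPM per kilobase, from 382 for mt-Co3 to 8158 for mt-Co1, the genes of subunits 3 and 1 of cytochrome c oxidase. These levels leave out reads that RSEM, the counting program, gave to nearly identical nuclear copies, which took 96.1% of the reads of mt-Atp6 and its copies, 95.7% for mt-Co3 and 94.9% for mt-Co2. With copies added, the mean over all 13 mice was 10530 CPM per kilobase for mt-Atp6, 8804 for mt-Co1, 8341 for mt-Co2 and 7729 for mt-Co3, so the order of these genes rests on the copies.

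**Figure D1:**
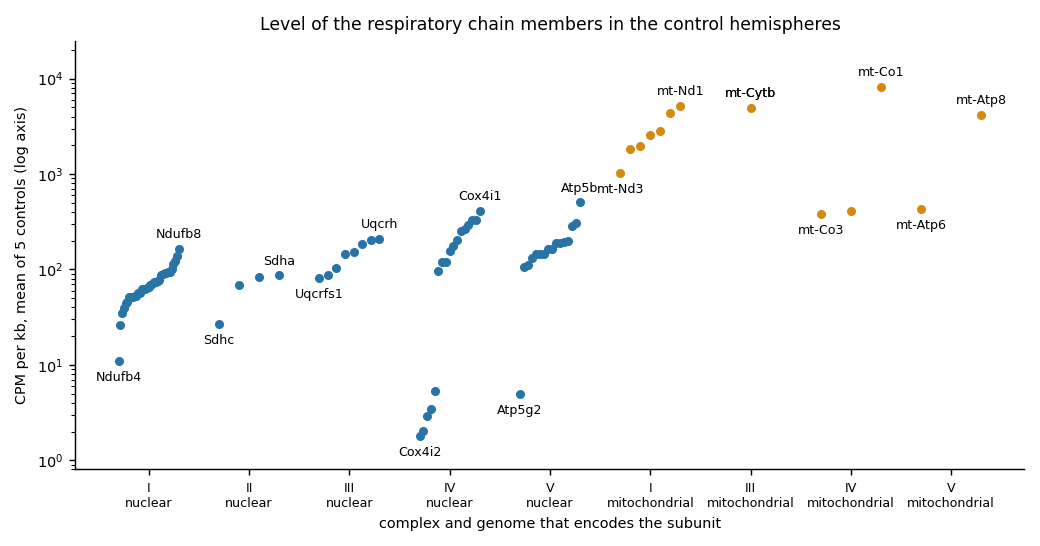
Mean level of each tested member of a complex, in CPM per kilobase of transcript on a log axis, in the 5 controls, by complex and genome (blue, nuclear; orange, mitochondrial). With the reads of copies left out, the mitochondrial members lie between 382 and 8158, and the tissue isoforms of complex IV lie between 1.78 and 5.33.

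3 of the nuclear members did not pass the filter on low counts, all of them tissue isoforms of cytochrome c oxidase. Cox8c, a testis isoform of subunit 8, had 0 counts in every library, which allows up to 3 counts in each, and Cox8b, the muscle isoform, had 0 to 2 counts. Cox7b2, a testis isoform of subunit 7b, had 2 to 11 counts. The common isoform held nearly all of the summed level per kilobase of its family in every library. Its lowest share was 99.49% for Cox4i1, 97.79% for Cox6a1, 98.14% for Cox6b1 and 98.29% for Cox7a2. For Cox7b it was 99.23%, for Cox8a 99.9% and for Ndufa4 98.79%. The tissue isoforms Cox4i2, Cox6a2, Cox6b2, Cox7a1, Cox7b2, Cox8b and Ndufa4l2 made up the remainder.

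The comparison of nlsYAP5SA with control asked how the hemisphere's gene expression differs when active YAP1 is made. Nuclear respiratory chain genes were lower in nlsYAP5SA on average: 80 of the 81 tested had a lower mean, with a median log2 fold change of -0.22 and a median change of -14.1%. Tested by quasi-likelihood in edgeR, with p-values adjusted after Benjamini and Hochberg over 16315 genes, 10 nuclear members fell and 0 rose, while 51 reached an unadjusted p of 0.05, as did 3984 of all genes. Over all genes tested, 3.44% were called lower and 7.36% higher, the median log2 fold change was -0.01, and 51.3% had a lower mean. The 13 mitochondrial members all had a lower mean, with a median log2 fold change of -0.15, but none passed the test in edgeR and 1 reached an unadjusted p of 0.05. In whole hemispheres, fewer cells of a type and less RNA per cell cannot be told apart.

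The count of members called moved with single mice. Without control replicate 1, 2, 3 or 4 it was 5, 2, 26 and 2, and without nlsYAP5SA replicate 1, 2, 4 or 5 it was 6, 2, 3 and 2. In each of these fits 94 members were tested. Of all genes, 2.982%, 2.7%, 3.898% and 1.907% were called lower without these controls. For the nlsYAP5SA mice left out, the shares of all genes were 2.131%, 2.064%, 3.676% and 1.796%. Where 2 or 3 members were called, their share was thus near that of all genes. Without any 1 of the 10 mice the nuclear median stayed between -0.26 and -0.15. All controls had Y-linked reads, against 2 of the nlsYAP5SA mice, and with only the mice that had such reads the nuclear median was -0.19 and the mitochondrial median -0.01. In that fit, which held 2 nlsYAP5SA mice, 0 members passed edgeR's test and 8 reached an unadjusted p of 0.05, and 26 of all 16918 genes were called lower. The log2 fold change was then -0.45 for Cox7c and -0.33 for Atp5k, beside -0.43 and -0.36 with all mice. With the summed level of the Y-linked genes as a covariate, 0 members passed edgeR's test and 15 reached an unadjusted p of 0.05, and 64 of all 16315 genes were called lower (0.392%).

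The ETS motif CCGGAAG and the NRF1 motif GCGCANGCG are known from promoters of nuclear respiratory chain genes. Upstream windows from RefSeq (GRCm38.p6), 250 bases before to 50 after the start of transcription, matched 68 of the 97 members. Searched on both strands, CCGGAAG stood in the window of 16 of these 68 members (23.5%), against 9.93% of all 27025 genes with a window. GCGCANGCG stood in 20 members (29.4%), against 7.03% of all genes. The motif AAGATGGC of YY1 stood in 10 members (14.7%), against 3.19%. Of the 10 members that fell, 9 had a window, of which 3 held CCGGAAG (Cox8a, Atp5k and Atp5h), 2 held GCGCANGCG (Atp5k and Atp5h) and 1 held AAGATGGC (Atp5j2). The windows of the 3 with the ETS motif are printed to show what such a window holds, 5′ to 3′ on the strand of the gene, with the ETS and NRF1 matches in capitals (the NRF1 match of Atp5k is read on both strands, which overlap). They lie at chr5:108434350-108434649, minus strand, for Atp5k, chr11:115419870-115420169, minus strand, for Atp5h and chr19:7217567-7217866, minus strand, for Cox8a.
Atp5k: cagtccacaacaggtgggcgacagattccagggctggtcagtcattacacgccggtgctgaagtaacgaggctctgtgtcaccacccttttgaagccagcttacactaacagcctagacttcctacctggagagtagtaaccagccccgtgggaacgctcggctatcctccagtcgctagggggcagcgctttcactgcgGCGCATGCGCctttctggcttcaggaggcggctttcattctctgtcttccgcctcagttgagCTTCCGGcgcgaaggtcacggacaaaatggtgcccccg
Atp5h: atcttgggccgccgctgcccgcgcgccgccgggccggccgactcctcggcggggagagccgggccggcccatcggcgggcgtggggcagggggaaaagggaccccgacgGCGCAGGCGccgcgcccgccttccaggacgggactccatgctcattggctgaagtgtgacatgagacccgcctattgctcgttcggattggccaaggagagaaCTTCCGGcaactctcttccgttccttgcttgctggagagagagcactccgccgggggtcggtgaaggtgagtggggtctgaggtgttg
Cox8a: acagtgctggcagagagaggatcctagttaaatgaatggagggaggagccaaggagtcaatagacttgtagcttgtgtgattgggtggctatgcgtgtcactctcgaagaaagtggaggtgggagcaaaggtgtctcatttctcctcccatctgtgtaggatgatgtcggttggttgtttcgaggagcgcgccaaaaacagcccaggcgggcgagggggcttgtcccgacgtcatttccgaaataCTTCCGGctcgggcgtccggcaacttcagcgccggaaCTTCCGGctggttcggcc
The window of Cox7c, the member with the smallest adjusted p, held none of these letters. Whether a match goes with a call was not tested, and a match of letters is a description of the window and not a site of binding.

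In complex IV, which reduces oxygen to water, 4 of 17 tested nuclear members fell, with a median log2 fold change of -0.25. All 4 were among the 11 common isoforms (median -0.25), and 10 of those 11 reached an unadjusted p of 0.05. Cox7c, a small accessory subunit (ENSMUSG00000017778, chr13:86044816-86046904 in GRCm38), had 60.0, 54.5, 47.4, 48.0 and 49.4 CPM in the controls, 46.4, 36.1, 37.3, 38.7 and 34.7 in nlsYAP5SA, and 58.1, 53.7 and 48.6 in C57BL/6. Every nlsYAP5SA mouse was below every control. The fall was 0.43 on the log2 scale (SE 0.09, adjusted p = 0.00799), and it was called in 21 of 23 alternative settings, which included all 10 that left out a mouse.

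Cox8a, the common isoform of subunit 8 (chr19:7215153-7217616), had 215, 189, 161, 182 and 167 CPM in the controls and 159, 141, 166, 132 and 143 in nlsYAP5SA. The groups overlapped through nlsYAP5SA replicate 3. Its log2 fold change was -0.31 (SE 0.09, adjusted p = 0.0450). Cox5a, an accessory subunit on the matrix side (chr9:57521274-57532426), had 149.8, 139.5, 119, 130.1 and 123 CPM in the controls and 119, 103, 121, 106 and 106 in nlsYAP5SA, and its groups overlapped. The log2 fold change of Cox5a was -0.26 (SE 0.08, adjusted p = 0.0449). Cox7b (chrX:106015700-106022450), an X-linked subunit, had 135, 127, 109, 121 and 110.3 CPM in the controls and 106, 92.0, 114, 90.5 and 96.3 in nlsYAP5SA. Only nlsYAP5SA replicate 3 lay within the controls' range, and the log2 fold change was -0.27 (SE 0.08, adjusted p = 0.0483).

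The other isoforms of complex IV did not pass the test. Of the common ones, the log2 fold change was -0.16 for Cox4i1, -0.22 for Cox6a1, -0.24 for Cox6b1, -0.25 for Cox7a2 and -0.22 for Ndufa4. Cox7a2l, a relative of subunit 7a that takes part in supercomplexes and was counted in neither set of isoforms, had -0.10. Cox4i2 (lung isoform) stood at 1.296 ± 0.354 CPM (SD, n = 5) in the controls and 0.794 ± 0.112 in nlsYAP5SA, with a log2 fold change of -0.71 (adjusted p = 0.0606), the most negative of all members. Cox6a2 (muscle isoform) had a log2 fold change of -0.28 (adjusted p = 0.190) and Cox7a1 (muscle isoform) one of -0.39 (adjusted p = 0.544). Cox6b2 (testis isoform) was the only tested nuclear member with a higher mean in nlsYAP5SA, with 1.60 ± 0.352 CPM in the controls and 1.84 ± 0.265 in nlsYAP5SA and a log2 fold change of 0.20 (adjusted p = 0.558). Ndufa4l2, which belongs with Ndufa4 to complex IV, did not overlap between groups (2.54 to 3.01 CPM against 1.99 to 2.40) but had an adjusted p of 0.0813.

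**Figure D2:**
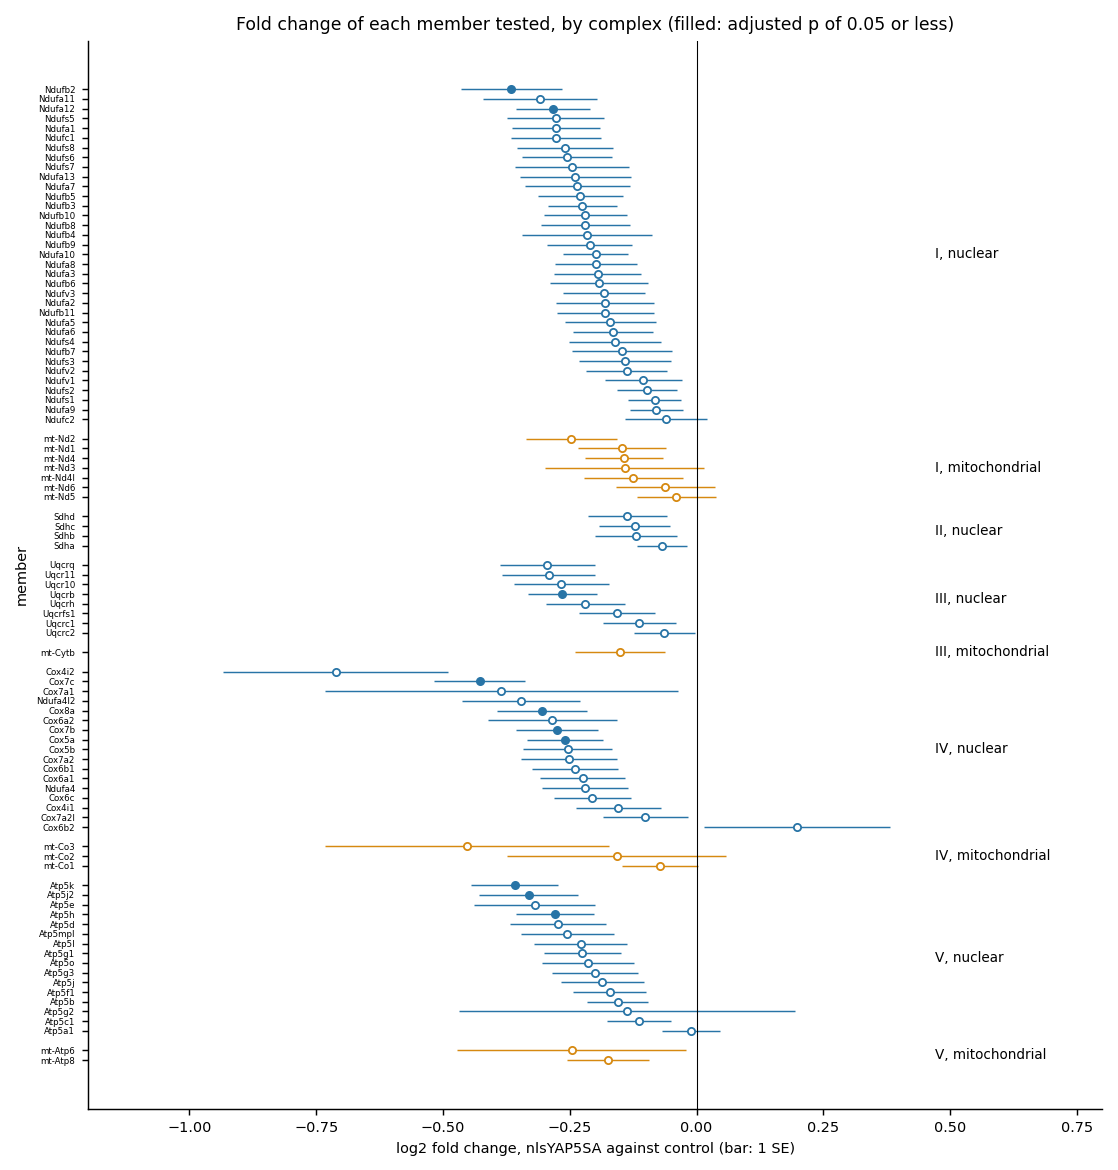
Log2 fold change of nlsYAP5SA against control for each tested member by complex and genome, with bars of 1 SE on each side (filled points, adjusted p of 0.05 or less; blue, nuclear; orange, mitochondrial). The filled points are 10 nuclear members, and Cox6b2 is the only nuclear point to the right of 0.

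In complex V, 3 of 16 nuclear members fell, with a median log2 fold change of -0.22. The accessory subunits of the membrane part had a median of -0.29 (2 of 4 called), the peripheral stalk -0.20 (1 of 4), the c ring -0.20 (0 of 3) and the catalytic F1 head -0.16 (0 of 5). Atp5k, the e subunit of the membrane part that takes part in dimers of the enzyme (ENSMUSG00000050856, chr5:108433244-108434448), had 72.3, 64.4, 52.8, 58.7 and 54.9 CPM in the controls and 48.9, 44.5, 51.9, 44.9 and 46.7 in nlsYAP5SA. All nlsYAP5SA mice were below all controls. It fell by 0.36 on the log2 scale (SE 0.09, adjusted p = 0.0176) and was called in 20 of 23 alternative settings. Atp5j2 (f subunit of the membrane part, chr5:145183698-145192062) had 127, 103, 89.8, 91.4 and 92.4 CPM in the controls and 85.7, 71.6, 86.8, 79.6 and 77.8 in nlsYAP5SA. Its groups did not overlap, and the log2 fold change was -0.33 (SE 0.10, adjusted p = 0.0484).

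Atp5h, subunit d of the peripheral stalk that holds the catalytic head still (chr11:115415689-115419962), had 142, 132, 109.8, 126 and 116 CPM in the controls and 106, 99.4, 115, 97.4 and 100.2 in nlsYAP5SA. Only nlsYAP5SA replicate 3 was above the lowest control. Its log2 fold change was -0.28 (SE 0.08, adjusted p = 0.0354). In the F1 head Atp5a1, its alpha subunit, had 757 ± 23.7 CPM in the controls and 753 ± 57.2 in nlsYAP5SA, a log2 fold change of -0.01 (adjusted p = 0.938). Atp5b, its beta subunit, had a log2 fold change of -0.16 (adjusted p = 0.133). The c ring genes had -0.23 (Atp5g1, adjusted p = 0.0826), -0.14 (Atp5g2, adjusted p = 0.846) and -0.20 (Atp5g3, adjusted p = 0.167).

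In complex I, the entry point for electrons from NADH, 2 of 35 nuclear members fell and the median log2 fold change was -0.20. The 28 accessory subunits had a median of -0.21 and held both called members, and the 7 nuclear core subunits, which carry the redox centres, had -0.14 and held none. The membrane arm had a median of -0.22 (1 of 19) and the peripheral arm -0.17 (1 of 16). Ndufa12, an accessory subunit of the peripheral arm (ENSMUSG00000020022, chr10:94198720-94221443), had 57.4, 52.6, 45.3, 51.5 and 46.6 CPM in the controls and 43.3, 41.7, 45.1, 38.4 and 40.3 in nlsYAP5SA. No nlsYAP5SA mouse reached the lowest control. It fell by 0.28 on the log2 scale (SE 0.07, adjusted p = 0.0261).

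Ndufb2, an accessory subunit of the membrane arm (chr6:39592574-39603382), had 55.3, 48.9, 41.0, 44.7 and 40.6 CPM in the controls and 39.1, 30.0, 38.9, 38.0 and 33.4 in nlsYAP5SA. These groups also did not overlap. The fall was 0.37 on the log2 scale (SE 0.10, adjusted p = 0.0343). Ndufb2 shares 146 bases with Braf on the opposite strand, and since no strand setting is named, reads there cannot be told apart between the 2 genes. The most positive member of complex I was Ndufc2, a membrane arm subunit, with a log2 fold change of -0.06 (adjusted p = 0.701).

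Complex III carries electrons from ubiquinol to cytochrome c, and 1 of its 8 nuclear members fell (median log2 fold change -0.24). Uqcrb, a small accessory subunit (chr13:66900617-66905378), had 86.1, 76.8, 69.6, 78.9 and 73.6 CPM in the controls and 68.9, 59.3, 69.5, 60.6 and 62.9 in nlsYAP5SA. Control replicate 3 and nlsYAP5SA replicate 3 lay closest together, at 69.6 and 69.5 CPM. The log2 fold change was -0.26 (SE 0.07, adjusted p = 0.0261). Uqcrq, a further small subunit, had the most negative log2 fold change of the complex, -0.29 (adjusted p = 0.0682), and Uqcrc2, a core protein, the most positive, -0.06 (adjusted p = 0.564). Complex II, which oxidises succinate, had a median of -0.12 and 0 of 4 called. Its log2 fold changes were -0.07 for the flavoprotein Sdha, -0.12 for the iron-sulfur protein Sdhb, -0.12 for the membrane anchor Sdhc and -0.14 for the membrane anchor Sdhd, with adjusted p from 0.310 to 0.437.

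**Figure D3:**
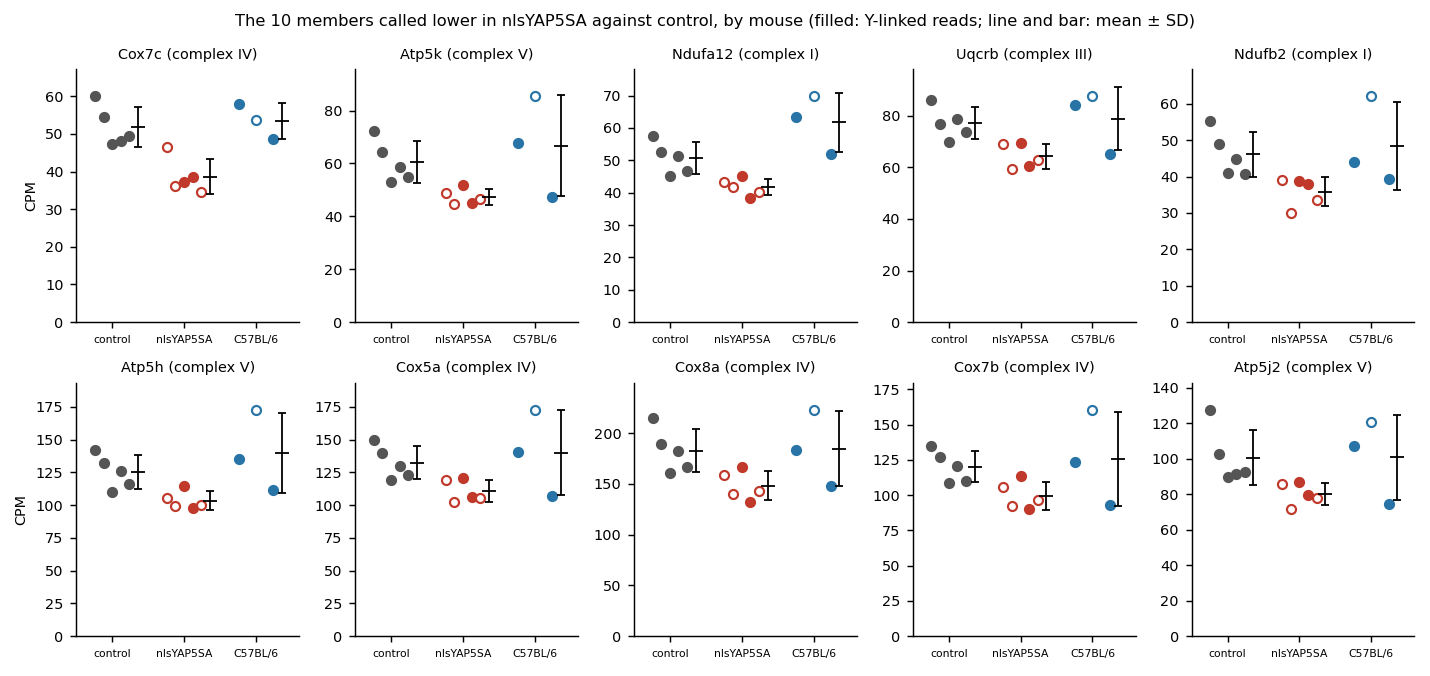
CPM of the 10 members called lower in nlsYAP5SA against control, in each control, nlsYAP5SA and C57BL/6 mouse, with mean and SD (filled, libraries with Y-linked reads; open, without them). In Cox7c and Atp5k every nlsYAP5SA point lies below every control point.

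Counted over single members rather than tests, 7 of 94 tested members, all nuclear, had every nlsYAP5SA mouse below every control (Cox7c, Atp5k, Atp5j2, Ndufa12, Ndufb2, Uqcrb and Ndufa4l2), against 3.57% of all genes tested. In each of the other members that fell, nlsYAP5SA replicate 3 lay above the lowest control. The remaining called members in the settings tried were less steady than Cox7c and Atp5k. Ndufb2 and Ndufa12 were called in 14 of the 23 alternative settings, Uqcrb in 13, Cox8a, Cox7b, Atp5j2 and Atp5h in 11, and Cox5a in 10.

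The mitochondrial members, which all code for core subunits, did not pass the test. mt-Nd2, a proton-pumping subunit of complex I, had 3478, 2959, 2516, 2810 and 2773 CPM in the controls and 2276, 2325, 2659, 2737 and 2277 in nlsYAP5SA. The groups overlapped, and the log2 fold change was -0.25 (SE 0.09, adjusted p = 0.105), the smallest adjusted p of the 13. In DESeq2's Wald test it was the 1 mitochondrial member called, with an adjusted p of 0.0473. For mt-Co3 the log2 fold change was -0.45 (adjusted p = 0.351), but -0.17 with the reads of its copies added (adjusted p = 0.200). mt-Nd5, a further proton-pumping subunit, had -0.04 (adjusted p = 0.801). Of the others, mt-Nd1 had a log2 fold change of -0.15, mt-Nd3 of -0.14, mt-Nd4 of -0.14, mt-Nd4l of -0.12, mt-Nd6 of -0.06, mt-Cytb (cytochrome b of complex III) of -0.15, mt-Co1 of -0.07, mt-Co2 of -0.16, mt-Atp6 of -0.25 and mt-Atp8 of -0.17. Together these members took 3.50% to 4.54% of all estimated counts in the controls, 3.31% to 4.02% in nlsYAP5SA and 3.53% to 4.08% in C57BL/6. The nuclear members took 0.796% to 1.02%, 0.718% to 0.888% and 0.786% to 1.07% in the same order.

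A score for each mouse, the mean over members of log2(CPM + 0.5) with the control mean set to 0, shows how the groups lay. For the 81 nuclear members it was 0.21, 0.05, -0.15, -0.02 and -0.09 in the controls, -0.11, -0.28, -0.07, -0.28 and -0.25 in nlsYAP5SA, and 0.06, 0.34 and -0.25 in C57BL/6. Control replicate 1 was the highest of the controls, nlsYAP5SA replicates 1 and 3 lay within the range of the controls, and C57BL/6 replicates 2 and 3 lay at the top and near the bottom of all 13 mice. The mean was -0.20 ± 0.10 in nlsYAP5SA (SD, n = 5), with an SD of 0.14 in the controls and 0.29 in C57BL/6. For the 13 mitochondrial members the score was 0.26, 0.00, -0.16, -0.04 and -0.06 in the controls, -0.30, -0.24, 0.08, -0.14 and -0.25 in nlsYAP5SA, and -0.06, -0.05 and 0.00 in C57BL/6. In C57BL/6 the mitochondrial score had an SD of 0.03, against 0.29 for the nuclear score.

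**Figure D4:**
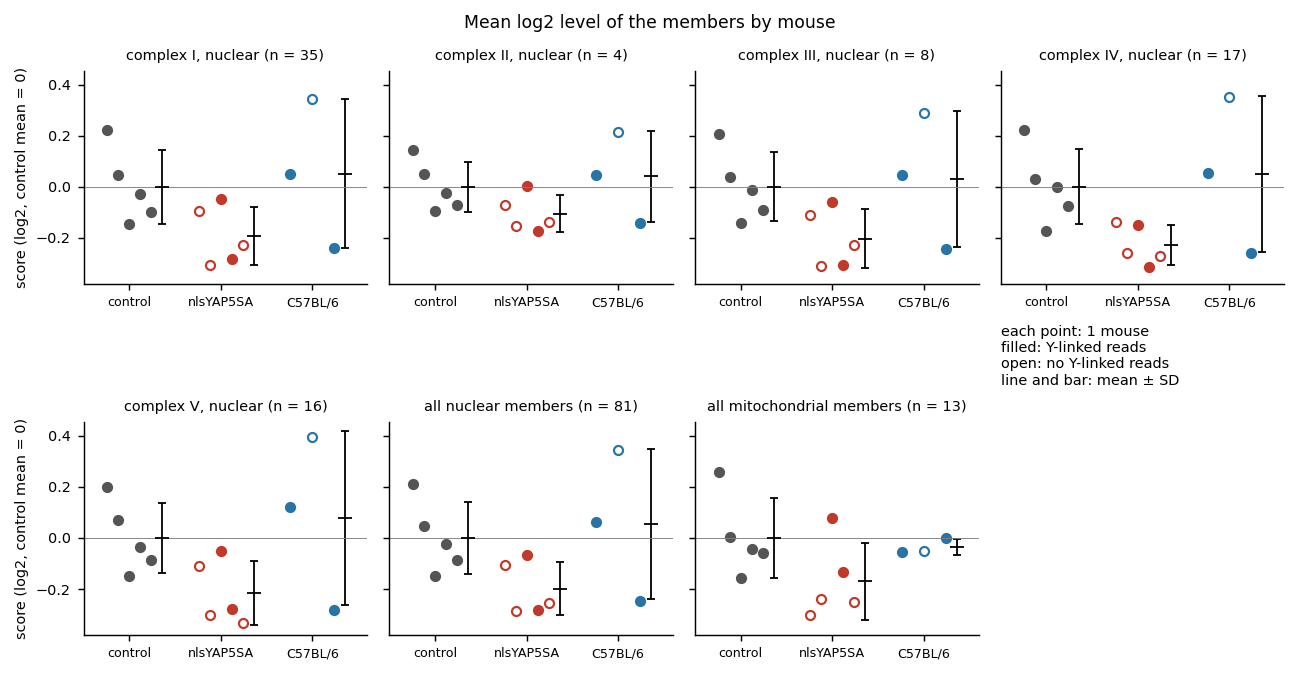
Score of each mouse (mean log2(CPM + 0.5) over the members of a set, control mean set to 0) for the nuclear members of complexes I to V, all nuclear members and all mitochondrial members, with mean and SD (filled, Y-linked reads; open, none). The nlsYAP5SA points lie from -0.28 to -0.07 in the nuclear score, and the C57BL/6 points from -0.25 to 0.34.

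Shorter transcripts of the nuclear members had the more negative changes. In nlsYAP5SA against control, Spearman's rho between log2 fold change and transcript length was 0.57 over 81 nuclear members and 0.17 over 16262 genes, a description across genes of the same libraries. The 11 members of up to 500 bases had a median log2 fold change of -0.29 and all genes of that length one of -0.09, and the 43 members of 500 to 1000 bases had -0.23 beside -0.08. The 22 members of 1000 to 2000 bases had -0.14 beside -0.05, and the 5 of 2000 to 4000 bases had -0.08 beside 0.00. The median member had 745 bases and the median gene tested 2760. With an offset for GC content and length the nuclear median was -0.14 and 29 members were called lower, as were 5.27% of all genes. The medians given above by complex, or by part of a complex, were not adjusted for length. The part of transcript length in these results was not tested.

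Other genes of the pathway were counted from lists of textbook composition. Beside them, 3.44% of all genes were called lower and 51.3% had a lower mean. Of 46 tested assembly factors of the complexes, 45 had a lower mean, 5 fell and 0 rose (median log2 fold change -0.15). These were Ndufaf4, Ndufaf5 and Timmdc1, which help to build complex I, Bcs1l, which inserts the iron-sulfur protein of complex III, and Tmem70, which helps to build complex V, with log2 fold changes from -0.40 for Bcs1l to -0.24 for Ndufaf4. Of 8 subunits and carriers outside the symbol rule, Cycs, the gene of cytochrome c, fell by 0.26 on the log2 scale (adjusted p = 0.0104), Cyc1, cytochrome c1 of complex III, had -0.31 (adjusted p = 0.0573), and Ndufab1, the acyl carrier subunit of complex I, had -0.23 (adjusted p = 0.134). The median of these 8 was -0.23, and 6 of them had a lower mean.

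Of 17 regulators of mitochondrial biogenesis, 2 fell and 0 rose (median log2 fold change -0.08). Esrra, a nuclear receptor that drives respiratory chain genes, fell by 0.27 on the log2 scale (SE 0.07, adjusted p = 0.0272), and Polg, the polymerase of mitochondrial DNA, by 0.17 (adjusted p = 0.0489). The coactivator Ppargc1a had 0.03 (adjusted p = 0.893), the transcription factor Nrf1 -0.08 (adjusted p = 0.573), Gabpa, an ETS factor, 0.18 (adjusted p = 0.246) and Tfam, a factor of mitochondrial transcription, 0.05 (adjusted p = 0.683). Of 15 genes of the tricarboxylic acid cycle 2 fell (Dlst and Idh3b) and 0 rose, with a median of -0.11. Of 20 genes of glycolysis and lactate 2 fell (Pfkl and Eno1) and 3 rose, namely Hk2 (hexokinase 2, 0.62), Slc16a3 (a lactate transporter, 0.55) and Aldoc (an aldolase of astrocytes, 0.51), with a median of -0.09. Of 78 mitochondrial ribosomal proteins 5 fell and 0 rose (median -0.15), and of 80 cytosolic ribosomal proteins 0 passed the test (median -0.08). A lower mean was found in 9 of the 17 regulators, 14 of the 15 cycle genes and 17 of the 20 glycolysis genes. It was found in 74 of the 78 mitochondrial and 67 of the 80 cytosolic ribosomal proteins.

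Markers of other cell types moved in the same libraries. Microglial markers rose in 6 of 7 and none fell, and their summed level was 229 to 291 CPM in the controls and 355 to 462 in nlsYAP5SA. Of 7 astrocyte markers 3 rose, among them Gfap (log2 fold change 2.06), and 1 fell (S100b), with summed levels of 2969 to 5425 and 4864 to 6647 CPM. Of 9 neuronal markers 1 fell, Neurod6, the locus that holds Cre (-0.98), with summed levels of 6194 to 6701 and 6066 to 6281 CPM. Olig1 was the 1 of 7 oligodendrocyte lineage markers that fell (2178 to 3436 and 1483 to 2901 CPM), and 2 of 5 endothelial markers fell (152 to 179 and 133 to 170 CPM). Foxj1, of 5 ependymal markers, rose (12.2 to 24.3 and 22.0 to 26.2 CPM summed), as did Folr1 of 7 choroid plexus markers (12.1 to 236 and 13.4 to 312 CPM), and 0 of 4 erythroid markers were called (173 to 391 and 137 to 256 CPM). The part of these cell types in the lower levels of the members was not tested.

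The comparison of C57BL/6 with control asked whether the transgene without Cre, or the breeding, changes the members. No member passed edgeR's test, with 28 of 16546 genes called in either direction (0.169%), and 2 of the 94 tested members reached an unadjusted p of 0.05, as did 625 of all genes. The median log2 fold change was 0.06 over the nuclear members, 73 of which had a higher mean in C57BL/6, and -0.08 over the mitochondrial members, 9 of which had a lower mean. In other settings the count was 0 or 1, the latter for DESeq2's Wald test, for a single fit of all 13 mice, with the offset for GC content and length, and without C57BL/6 replicate 3. Without C57BL/6 replicate 3 the nuclear median was 0.18, and without replicate 2 it was -0.09. C57BL/6 replicate 2 was the only mouse of its group without Y-linked reads. With the Y-linked level as a covariate, 81 of the 94 members had a negative log2 fold change, against 17 without the covariate. The nuclear median was then -0.09. The covariate mainly sets C57BL/6 replicate 2 apart, and leaving that mouse out also gave 81, so it is not a separate check.

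Atp5g1, a gene of the c ring of ATP synthase, was the member farthest from the control level. It had 93.4, 76.7, 75.1, 75.7 and 70.9 CPM in the controls, 65.0, 66.7, 74.3, 65.4 and 64.5 in nlsYAP5SA and 129, 149 and 99.0 in C57BL/6. All C57BL/6 mice were above all controls. The log2 fold change of C57BL/6 against control was 0.68 (SE 0.13, adjusted p = 0.186). The c ring protein is coded by 3 genes. Atp5g1 took 31.0% ± 0.87 of their summed level per kilobase in the controls (SD, n = 5). Its share was 30.7% ± 1.61 in nlsYAP5SA and 40.7% ± 0.53 in C57BL/6 (n = 3). Atp5g3 took 67.8%, 68.1% and 58.4% in that order, and Atp5g2 1.172%, 1.2001% and 0.856%.

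Counts were also given to a nearly identical pseudogene of Atp5g1. Gm10039 matches 411 bases of Atp5g1, all in the coding part, with 1 differing base and an identical run of 384 bases, and Gm15920 matches 402 bases of the coding part of Ndufa12, accessory to complex I, with 2 differing bases and an identical run of 278. The stretch around a differing base, which is in capitals, is shown for each pair in GRCm38 to show how alike gene and copy are; for Ndufa12 it holds 1 of the 2 differing bases. How RSEM assigned single reads was not examined. They lie at chr11:96073104-96073194, minus strand (Atp5g1), chr11:100361716-100361806, minus strand (Gm10039), chr10:94199953-94203298, plus strand and joined over an intron (Ndufa12), and chr5:130188448-130188538, plus strand (Gm15920).
Atp5g1: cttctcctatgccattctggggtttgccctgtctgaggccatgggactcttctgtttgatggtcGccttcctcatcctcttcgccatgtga
Gm10039: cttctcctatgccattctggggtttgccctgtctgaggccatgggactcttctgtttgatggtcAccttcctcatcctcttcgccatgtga
Ndufa12: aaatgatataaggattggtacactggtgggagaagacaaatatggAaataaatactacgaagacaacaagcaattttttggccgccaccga
Gm15920: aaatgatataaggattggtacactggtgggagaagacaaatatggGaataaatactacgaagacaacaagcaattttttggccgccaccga

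RSEM gave Gm10039 40.7, 36.2, 31.6, 36.1 and 32.3 CPM in the controls, 37.6, 27.2, 33.8, 28.4 and 27.5 in nlsYAP5SA and 4.12, 1.82 and 5.33 in C57BL/6. The copy was thus low in all C57BL/6 mice, where Atp5g1 was high. Gene and copy together had 113.8 ± 12.02 CPM in the controls (SD, n = 5), 98.1 ± 6.93 in nlsYAP5SA and 129 ± 23.3 in C57BL/6 (n = 3). The pair Ndufa12 and Gm15920 had 63.7 ± 5.44, 53.3 ± 3.15 and 64.9 ± 11.2 CPM. Gm15920 had 12.05 to 13.9 CPM in the controls, 8.10 to 12.97 in nlsYAP5SA and 0.807 to 5.27 in C57BL/6.

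**Figure D5:**
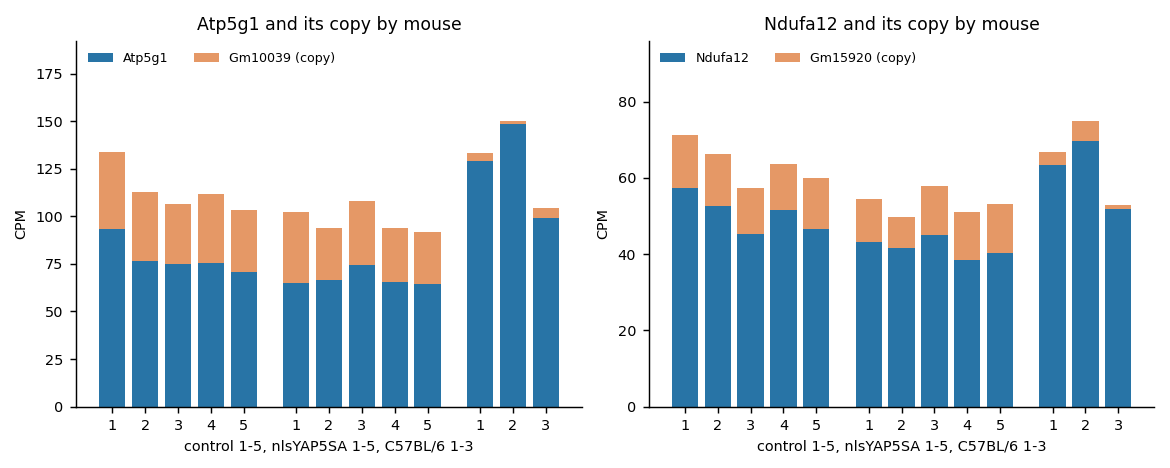
CPM of Atp5g1 with its copy Gm10039 and of Ndufa12 with its copy Gm15920, stacked for each of the 13 mice. The copy's part of the bar is small in the 3 C57BL/6 mice, at 1.82 to 5.33 CPM for Gm10039, against 27.2 to 40.7 in the other mice.

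In all, 27 members had 44 such copies, and for 9 of them at least 10% of the reads lay on copies. Among the nuclear members these were Ndufb4 with 78.1% on Ndufb4c, Atp5l with 27.7%, Atp5g1 with 23.9% and Ndufa12 with 17.0%. The mitochondrial ones were mt-Atp6 with 96.1%, mt-Co3 with 95.7%, mt-Co2 with 94.9%, mt-Nd3 with 42.0% and mt-Co1 with 10.1%, all with copies within 24611535 to 24616197 of chromosome 1. Levels of these members on their own are uncertain. With the reads of copies added, mt-Atp6 had 7451 ± 813 CPM in the controls and 6856 ± 667 in nlsYAP5SA, a log2 fold change of -0.12 in place of -0.25. In the same fit mt-Nd4l had -0.19 and mt-Nd3 -0.20. With their copies, the 13 mitochondrial members took 5.21% to 6.95% of all counts in the controls and 4.94% to 6.12% in nlsYAP5SA.

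The comparison of nlsYAP5SA with C57BL/6 used the same nlsYAP5SA mice against a second reference. All 81 tested nuclear members had a lower mean in nlsYAP5SA, with a median log2 fold change of -0.28 beside -0.01 over all genes, and 11 of 13 mitochondrial members had a lower mean (median -0.12). The nuclear median ranged from -0.43 without C57BL/6 replicate 3 to -0.09 without C57BL/6 replicate 2. edgeR's test called 4 nuclear members lower and 0 higher, where 2.22% of 16641 genes were called lower and 4.16% higher. Cox7c fell by 0.48 on the log2 scale (SE 0.10, adjusted p = 0.0194), with every nlsYAP5SA mouse below every C57BL/6 mouse. Cox6a2, at 2.71, 3.11, 2.73, 3.22 and 3.14 CPM in nlsYAP5SA and 4.08, 5.13 and 3.997 in C57BL/6, fell by 0.57 (SE 0.14, adjusted p = 0.0404). Atp5g1 fell by 0.92 (SE 0.11, adjusted p = 0.00163) and Ndufa12 by 0.58 (SE 0.10, adjusted p = 0.00751).

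With the reads of the copies added, the values were -0.41 for Atp5g1 (adjusted p = 0.0559) and -0.30 for Ndufa12 (adjusted p = 0.135), so that neither passed the test, while Cox7c (adjusted p = 0.0196) and Cox6a2 (adjusted p = 0.0412) did. Over 21 alternative settings, Atp5g1 was called in 18, Ndufa12 in 17, Cox7c in 14 and Cox6a2 in 9, and over the 8 of these that left out a mouse, in 8, 7, 4 and 1. In total, 6 of 94 tested members had every nlsYAP5SA mouse below every C57BL/6 mouse (Ndufb2, Ndufa12, Sdha, Cox7c, Cox6a2 and Atp5g1), near the share of 6.47% over all genes. The count called was 48 without C57BL/6 replicate 3 (4.56% of all genes called lower) and 1 without replicate 1 (0.586%), and 2 without C57BL/6 replicate 2, nlsYAP5SA replicate 2 or nlsYAP5SA replicate 5. With only the mice that had Y-linked reads, 2 in each group, edgeR called 0 members (3 with an unadjusted p of 0.05 or less) and the nuclear median was -0.08. By complex, the median log2 fold change was -0.27 for the nuclear members of complex I, -0.16 for complex II, -0.28 for complex III, -0.33 for complex IV and -0.31 for complex V.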

How the data were processed

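Poly(A) RNA of the right hemisphere was sequenced (KAPA mRNA HyperPrep, HiSeq 4000). The authors deposited estimated counts per gene, made with RSEM 1.3.0 after trimming with cutadapt 1.5 and mapping with STAR to GRCm38, not normalized or filtered. The submitters' processing notes also name SAMtools 1.8. Reads that fit several near-identical genes are shared out by RSEM. A strand setting is not given in the sources used here. Fractional values made up 12.4% to 13.3% of a sample, and all values were rounded.

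Groups came from the genotype labels. Genes were filtered with filterByExpr (minimum count 10, minimum total 15), scaled with TMM and tested between the groups compared with edgeR 4.0.16 (R 4.3.3), using its two-sided quasi-likelihood test and an adjusted p (Benjamini-Hochberg, all genes that passed the filter) of 0.05 as the threshold. The main fit and the alternatives with DESeq2, no filter, library size alone and the GC and length offset were tested on simulated data. DESeq2 1.42.0 was an alternative. Scores used log2(CPM + 0.5), and levels per kilobase used the shortest principal transcript in GENCODE M21 (GRCm38), from which positions were taken. Positions were found for 48435 of the 48795 genes and names for 48349. Copies were found with BLAST 2.17.0 (at least 95% identity over at least 80% of the copy). Tables were made with pandas 2.3.3 and scipy 1.17.1 under Python 3.11.15, and figures with matplotlib 3.10.9.

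The members and gene lists were chosen with earlier results of these data known, and the lists (assembly factors, carriers, biogenesis, tricarboxylic acid cycle, glycolysis, ribosomal proteins and cell type markers) are described by counts and medians. The 49 named by rule were those called in any comparison, the extremes of each complex, the Sdh genes, the mitochondrial genes and the isoforms. They also included the 3 nuclear members with the highest mean level per kilobase over all groups and those that did not pass the filter. Atp5s, as no structural subunit, and Ndufb4 and Atp5l, for their copies, were named besides. Genes that are no members and were singled out among the lists were chosen after their values were seen, except Ppargc1a, Nrf1, Gabpa, Esrra, Tfam, Cycs, Cyc1, Ndufab1 and Yap1. Counts are reads, so limits cover counting error only. No batch is named in the labels. Replicates were distinct: the closest pair of a group differed by 5.77 in chi-square over its degrees of freedom (14953 genes).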

Additional observations from a re-analysis of the deposited data

Results flagged for a closer look

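In groups of 5 mice, the gap of the highest or lowest mouse to its nearest neighbour was divided by the range of the group. Of 106 groups, from 53 scores and members, 5 exceeded the critical value of 0.71, while chance gives about 1 in 20. Atp5g1, a c ring gene of ATP synthase, was flagged in control replicate 1, which was high at 93.4 CPM (ratio 0.716), and in nlsYAP5SA replicate 3, high at 74.3 CPM (ratio 0.764). Atp5g2, a further c ring gene, was low in nlsYAP5SA replicate 5 at 0.422 CPM (ratio 0.750). mt-Co3, subunit 3 of complex IV, was high in control replicate 1 at 468 CPM (ratio 0.750). mt-Nd4l, a core subunit of complex I, was low in control replicate 4 at 439 CPM (ratio 0.771). These ratios leave out the reads of copies and were not taken anew with them. With copies, Atp5g1 had 134 CPM in control replicate 1 and 103 to 113 in the other controls. In nlsYAP5SA replicate 3 it had 108 CPM, beside 92.0 to 103 in the others. With copies, mt-Co3 had 7187 CPM in control replicate 1 and 5590 to 6632 in the other controls.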

How the results depend on the processing

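The 10 members called lower in nlsYAP5SA against control became 4 with library size alone, 25 with DESeq2's Wald test, 1 with all 13 samples in a single fit, 3 with the replicate block, 0 with the Y-linked level as a covariate, 16 with Ttr as a covariate, 29 with the offset for GC content and length, 0 with only mice that had Y-linked reads, and 2 to 26 without single mice. It was 10 or 11 with DESeq2 size factors, without mitochondrial genes in the library size, without a filter, with at least 10 counts in every sample and with copies added. In C57BL/6 against control the 0 calls became 1 with DESeq2's Wald test, all 13 samples in a single fit or the offset, and 0 to 1 without single mice. In nlsYAP5SA against C57BL/6 the 4 calls (2.22%) became 7 with DESeq2's Wald test (2.11%), 0 with the replicate block (0.012%) and 13 with the offset (4.03%). They became 2 with copies added (2.21%), 0 with only mice that had Y-linked reads (0.0243%), and 1 to 48 without single mice (0.586% to 4.56%). The cause of these shifts was not tested. Adding copies and keeping only mice with Y-linked reads were chosen after seeing the data.

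The nuclear median of nlsYAP5SA against control kept its sign in all 23 alternatives (-0.26 to -0.14), and so did the mitochondrial one (-0.20 to -0.01). No named member that was called changed direction. Of the counts called lower in the 7 pathway lists, 70 over all alternatives stayed within 1.5 times, 23 were higher and 68 lower. Replicate numbers did not pair the samples: the deviations of same-numbered control and nlsYAP5SA mice correlated at 0.33, -0.19, -0.33, -0.09 and 0.13, and only number 1 correlated best with itself. Cox8b, Cox8c and Cox7b2, at 0 to 11 counts, did not pass the filter. Without a filter 96 members were tested, all but Cox8c, which had 0 counts.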
